A study of Saccharomyces cerevisiae S288C with 18 samples.

Results

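The RNAs that co-purified with Upf1 from exponentially growing Saccharomyces cerevisiae were compared with the RNAs of the total extract. The comparison rests on 6 of the 18 libraries of the series, 3 from the Upf1-TAP purification and 3 from Input, chosen by their sample titles and not by any measured value. Upf1, the product of NAM7, carried a C-terminal TAP tag that binds IgG, in strain BY4741 (MATa his3Δ1 leu2Δ0 met15Δ0 ura3Δ0) with nam7(upf1)-TAP::HIS3MX6. Cells were grown in YPD at 30 °C to an optical density of 0.6, and the tagged protein was collected on IgG-coated magnetic beads with the RNAs bound to it directly or through partners. Input was an aliquot of total extract taken ahead of the purification, and the labels do not name the strain behind it. Ribosomal RNA was removed with either RiboZero or Ribominus reagents before stranded libraries were made, and the labels do not say which was used for each library. A control purification from the untagged strain BY4741, also 3 libraries, is set beside the results as the background of the beads. Replicate numbers mark independent experiments.

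Nonsense-mediated mRNA decay (NMD) removes RNAs on which a ribosome stops early or far from the 3′ end. Upf1, its central RNA helicase, works with Nmd2 (Upf2) and Upf3, and decapping by Dcp2 followed by digestion by Xrn1 usually destroys the RNA. In yeast, the pathway is known to act on pre-mRNAs that reach the cytoplasm unspliced, on mRNAs with short frames ahead of the main one, on pseudogene transcripts and on non-coding RNAs that ribosomes engage.

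The stop codons that a ribosome would meet can be read directly in the R64 genome (RefSeq annotation). For introns, the exon-intron junctions of 3 ribosomal protein genes with strong intron signals and of GLC7, whose intron behaved differently, are shown first, with the GTATGT of the 5′ splice site in capitals.
RPL28 (chrVII:311007-311036, + strand): acgtctcagGTATGTagttccatttggaag
RPL36A (chrXIII:651152-651181, + strand): ttaagacagGTATGTgagacataaacaagg
RPL26B (chrVII:555822-555851, + strand): aatctctagGTATGTttggaggatacgaat
GLC7 (chrV:432663-432692, + strand): ccaattaaaGTATGTtaatgttgaacttcg
Read on from the annotated start codon without splicing, each frame met the stop codon below, in capitals.
RPL28 (chrVII:310997-311026, + strand): cacagaggtcacgtctcaggtatgTAGttc
RPL36A (chrXIII:651145-651171, + strand): atgaccgttaagacaggtatgTGAgac
RPL26B (chrVII:555827-555856, + strand): ctaggtatgtttggaggatacgaaTAAcga
GLC7 (chrV:432654-432683, + strand): ttagaagccccaattaaagtatgtTAAtgt
The stop was codon 19 in unspliced RPL28, against 149 codons of the spliced frame, codon 8 in RPL36A and codon 14 in RPL26B. In GLC7 it was codon 62 of a spliced frame of 312. The intron of RPL28 spans 511 bases.

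For pseudogenes, the first in-frame stop of the annotated frame is shown for FLO8, a transcription factor of flocculation that is broken in this strain background, and for SDL1 and CCW22.
FLO8 (chrV:377186-377215, - strand): cctcaaggctttttgtatgaatggTAGcaa
SDL1 (chrIX:29389-29418, + strand): gcagatgaatacttgaggcacgaaTGAatg
CCW22 (chrIV:721278-721307, - strand): gtcaccgtaaatgacgttatcactTAAtac
These are codon 142 of 800 in FLO8, codon 128 of 339 in SDL1 and codon 67 of 137 in CCW22. CPA1, the small subunit of the arginine-specific carbamoyl phosphate synthetase, has a frame of 25 codons that starts 134 bases ahead of its own start codon and encodes the arginine attenuator peptide. Its first and last codons are in capitals.
CPA1 upstream start (chrXV:882756-882785, + strand): aaacattatATGtttagcttatcgaactct
CPA1 upstream stop (chrXV:882816-882845, + strand): cacatctggaaaactagctcccacTAAttt

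Counted reads totalled 9386615, 13183470 and 7822345 in Upf1-TAP replicates 1, 2 and 3, and 6173454, 13991212 and 2790148 in Input. The markers were checked: LEU2 and MET17 (MET15), which BY4741 lacks, had 0 reads in the 6 libraries and URA3 had 1. HIS3, of which his3Δ1 removes an internal part, had 6884, and the a-cell receptor gene STE2 had 19944 reads in the 6 libraries. Replicate 3 stood apart in both groups. Ribosomal DNA features took 41.3% of the reads of Input replicate 3 and 7.29% of those of Upf1-TAP replicate 3, against 0.126 to 0.666% in the other 4. Of 23521 features, 5004 had 0 reads in all 18 libraries, among them all 812 reverse-strand XUTs and 133 of 135 introns on the Crick strand, so that intron and XUT results concern the Watson strand almost alone. No source used here says whether reads were counted by strand.

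Levels are given as CPM, reads scaled by TMM to a library of 1000000 reads, in which 1 read was worth 0.0395 to 0.0784 CPM in Upf1-TAP and 0.154 to 1.02 CPM in Input. Fold changes are on the log2 scale with their standard error (SE), and adjusted p-values come from edgeR's quasi-likelihood test over the 12582 features that reached 10 reads in 3 or more libraries. In 49.6% of them the 3 Upf1-TAP and 3 Input libraries did not overlap. Of these 12582, 2792 were higher in Upf1-TAP than in Input at an adjusted p under 0.05, or 22.2%, and 1998 were lower, or 15.9%. With libraries scaled by their total count, the median of all features moved by 2.06 toward Upf1-TAP, so that higher and lower mean above and below the median feature. Many falls of up to about that size change sign with the scaling, and 1167 of the 4790 calls did so. The counts were 2462 higher and 1892 lower without Input replicate 3, and 2741 and 2019 without Upf1-TAP replicate 3. The control purification had its own profile, with 1159 features above Input (9.21%) and 876 below (6.96%).

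The classes of RNA separated. Introns took 0.846, 0.693 and 0.649% of all reads in the Upf1-TAP libraries against 0.166, 0.143 and 0.0915% in Input. The Xrn1-sensitive and stable unannotated transcripts (XUT/SUT), non-coding RNAs outside known genes, took 1.43, 1.28 and 0.73% against 0.121, 0.106 and 0.0522%. The 3′ UTRs took 8.81, 9.14 and 9.21% against 3.62, 2.61 and 2.01%. In these 3 classes every Upf1-TAP library lay above every Input library. Such shares amount to scaling by the total count, and by them XUT/SUT, at 0.159 to 0.304%, were above Input in the control purification too. Median log2 changes were 1.31 for 689 XUT/SUT, 0.55 for 3934 3′ UTRs, 0.48 for 1473 5′ UTRs, 0.39 for 86 introns, 0.22 for 274 cryptic unstable transcripts (CUT) and −0.01 for 5928 mRNA features, the reading frames and exons, against 0.27 over all features. In the control purification the same medians over Input were −0.76, 0.25, −0.15, −0.59, −1.12 and 0.08.

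**Figure D1:**
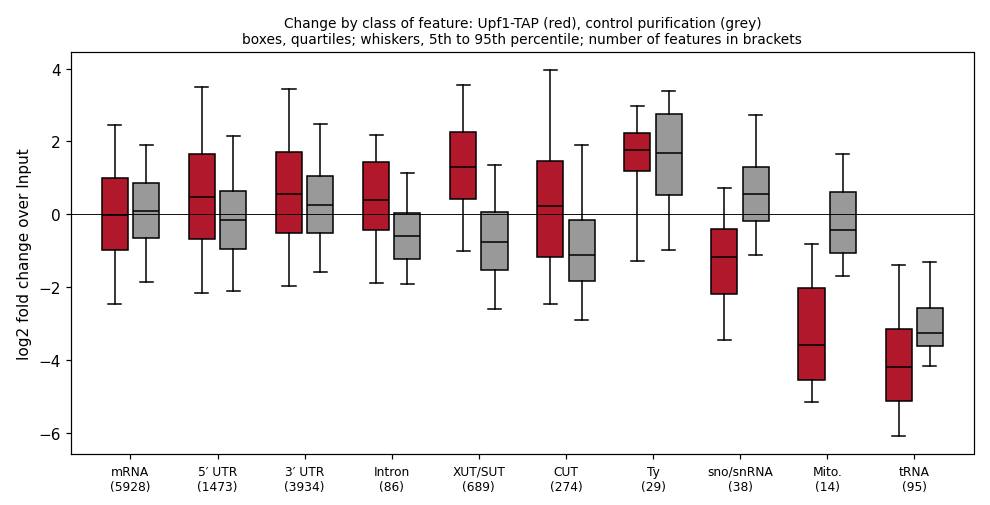
Log2 fold change over Input (y axis) for each class of feature (x axis), with Upf1-TAP in red and the untagged control purification in grey. Boxes show quartiles and whiskers the 5th to 95th percentile over features. The XUT/SUT box lies above 0 for Upf1-TAP, with a median of 1.31, and mostly below 0 for the control purification, with a median of −0.76.

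Ribosomal protein transcripts changed in the balance of intron and exon reads. RPL28, a protein of the large ribosomal subunit whose pre-mRNA is a textbook NMD substrate in yeast, lies at chrVII:310967-311927 on the + strand. Its intron stood at 858, 799 and 935 CPM in Upf1-TAP replicates 1, 2 and 3 and at 241, 238 and 190 CPM in Input. All Upf1-TAP libraries were above all Input libraries, by 1.95 ± 0.39 (SE) on the log2 scale (adjusted p = 0.00089). Its exons moved the other way, with 1110, 1435 and 1546 CPM in Upf1-TAP and 5388, 6114 and 7594 CPM in Input, a log2 change of −2.22 ± 0.60 (adjusted p = 0.0074). The exons were thus lower in each Upf1-TAP library. The control purification held exons at 1111, 1651 and 1562 CPM, close to Upf1-TAP, but the intron at only 87.8, 62.0 and 53.4 CPM.

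Because intron and exon reads come from 1 library, their ratio does not depend on the scaling. The log2 ratio of RPL28 was −0.37, −0.84 and −0.73 in Upf1-TAP and −4.48, −4.68 and −5.32 in Input, an 18.1-fold difference (4.18 on the log2 scale). The groups did not overlap, and the exact permutation test gave p = 0.1 (two-sided), the smallest that 3 against 3 libraries can give. The ratio was tested for 84 genes with limma, 53 of which were higher in Upf1-TAP (63.1%) and 5 lower (5.95%). All 51 ribosomal protein genes had a higher mean ratio in Upf1-TAP, and 49 passed the test, with a median difference of 3.98. The exons of ribosomal protein genes were themselves lower in Upf1-TAP, as described further on, so a higher ratio does not by itself mean a higher intron level. The 2 that did not pass were RPS22B, whose intron holds the snoRNA gene SNR44, at 0.98 (adjusted p = 0.18), and RPS9A at 1.03 (adjusted p = 0.19).

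Over Input, the ratios of RPL26B and RPL36A differed most. In RPL36A the Upf1-TAP libraries held 2708, 3131 and 1107 intron reads for 2548, 4145 and 467 exon reads, while Input held 19, 59 and 11 intron reads for 2937, 5395 and 158 exon reads. Intron reads thus ran near or above exon reads in each Upf1-TAP library, and the log2 ratio differed by 6.15 ± 0.75 (limma, adjusted p = 1.03e-06). In RPL26B the difference was 6.82 ± 0.79 (limma, adjusted p = 6.8e-07). Both ratios were also above the Input mean on the control beads. The control log2 ratios were −3.32, −3.64 and −3.63 for RPL36A (Input mean −5.84, Upf1-TAP mean 0.31). For RPL26B they were −4.95, −4.57 and −4.48 (Input mean −7.86, Upf1-TAP mean −1.04). Those of RPL28 were −3.66, −4.73 and −4.87, nearer to its Input mean of −4.83. Ratios were not tested against the control purification. For RPS13, RPL42A, RPL22A, RPS24A and RPS9B, other proteins of the ribosome, it was 4.86, 4.83, 5.67, 5.30 and 4.17.

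As levels rather than ratios, 21 of 52 ribosomal protein introns were higher in Upf1-TAP, 4 were lower and 27 did not pass, beside the background of 22.2% and 15.9%. The RPL36A intron stood at 131, 124 and 86.8 CPM against 5.89, 9.06 and 11.2 CPM in Input, a log2 change of 3.75 ± 0.49 (adjusted p = 4e-05). Introns of RPL26B (3.07), RPL22A (2.59) and RPS24A (2.11) rose too, with no overlap between groups. The RPS9B intron, at 180, 152 and 211 CPM against 117, 167 and 109 CPM, did not pass (0.46, adjusted p = 0.24), while its exons changed by −3.84. RPS24A lost its call without Upf1-TAP replicate 1 or 2 or Input replicate 1 or 3 (edgeR, adjusted p up to 0.0733). Against the control purification, 32 of the 52 were higher in Upf1-TAP and 0 lower, beside 19.8% and 13.9% of all features, and at an unadjusted p under 0.05 these were 36 and 0 in edgeR.

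All 50 ribosomal protein genes with 1 annotated intron inside the coding region met their first stop within the intron, at a median codon of 16.5 (range 4 to 115). Among 30 other genes with such an intron, 27 did, at a median codon of 35 among the 27, and 1, PTC7, read through to its normal stop. Ribosomal protein introns had a median length of 404 bases against 174, and 39 of 50 began with GTATGT against 21 of 30. An early stop in the intron was thus common to both sets. Over the 33 other genes tested, the median difference was 0.26, with 4 higher and 5 lower.

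The 4 other genes whose ratio rose were SEC17 (2.69), a factor of membrane fusion, SUS1 (2.53), of the SAGA and mRNA export complexes, LSM2 (1.87), of the Lsm rings, and UBC13 (1.57), a ubiquitin-conjugating enzyme. Input held only 2 intron reads for SEC17 and 4 for SUS1 over 3 libraries, and 4, 2 and 0 for LSM2 in replicates 1, 2 and 3. The LSM2 ratio overlapped between groups, at −6.04 in Upf1-TAP replicate 3 and −5.38 in Input replicate 1. The control purification overlapped Upf1-TAP for SEC17, SUS1 and UBC13, but not for LSM2. For SUS1 it stood at −3.11, −1.94 and −3.79, against −1.87, −2.46 and −2.32 in Upf1-TAP. The 5 that fell were GLC7 (−2.49), the catalytic subunit of protein phosphatase 1, ECM33 (−2.40), a cell wall protein, YRF1-3 (−1.91), a subtelomeric gene with near-identical copies and so uncertain, PSP2 (−1.89) and MPT5 (−1.40), an mRNA-binding protein. These 9 were singled out after their values were seen. The GLC7 intron, with the early stop printed above, stood at 5.75, 7.51 and 7.61 CPM in Upf1-TAP against 28.8, 23.7 and 34.6 CPM in Input, while its exons stood at 137, 217 and 226 CPM against 87.7, 131 and 239 CPM. The intron levels did not overlap and those of the exons did.

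HAC1 encodes the activator that answers stress in the endoplasmic reticulum. It has an intron that Ire1 removes in place of the spliceosome and that stays in the mRNA in unstressed cells. Its intron stood at 53.7, 86.4 and 167 CPM in Upf1-TAP against 1193, 931 and 577 CPM in Input, and its exons fell in parallel (−3.14 and −3.37 on the log2 scale). The ratio of intron to exons was thus close in both groups, differing by 0.26 (adjusted p = 0.63). The other leading falls among introns with a mean of at least 20 CPM were those of ECM33 (−3.73), RPL17A (−2.30) and RPS0B (−1.70), which stood at −1.55, 0.33 and −0.09 against the control purification. The 12 introns called lower became 7 without Upf1-TAP replicate 1, Upf1-TAP replicate 2 or Input replicate 1. Of the ribosomal protein introns, 4 were lower and 2 without any 1 of Upf1-TAP replicates 1 and 2 and Input replicates 1, 2 and 3. The 8 lower introns of other genes became 5 without Upf1-TAP replicate 1, Upf1-TAP replicate 2 or Input replicate 1, and the 4 higher ones became 2 without Input replicate 2.

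**Figure D2:**
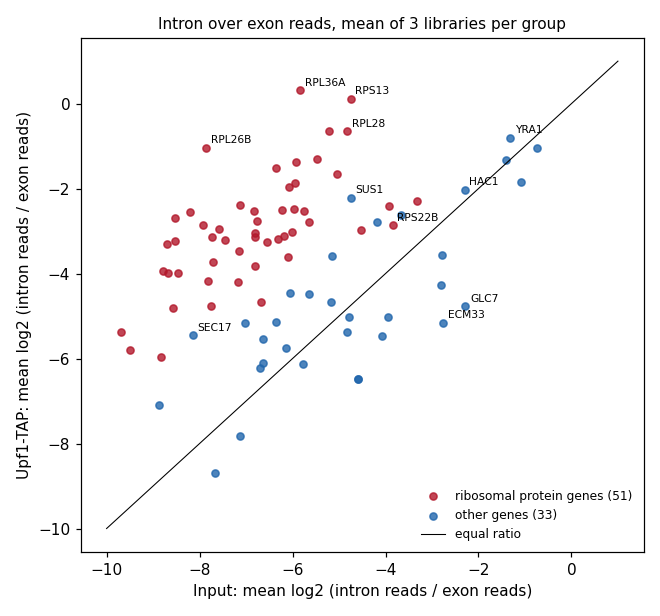
Mean log2 ratio of intron to exon reads in Input (x axis) and in Upf1-TAP (y axis) for 84 genes, each point the mean of 3 libraries per group. All 51 ribosomal protein genes (red) lie above the line of equal ratio, by a median of 3.98, while the 33 other genes (blue) lie on both sides, with GLC7 and ECM33 among those below it.

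The mRNAs known from earlier work as NMD-sensitive rose as a list. The list includes CCW22, which is counted again among the pseudogenes below. Of 15 tested, 11 were higher in Upf1-TAP (73.3%, beside 22.2% of all features), 0 lower and 4 did not pass. Their median was 1.79 against 0.27 over all features. With DESeq2 1 was lower, as in edgeR when p was left unadjusted. CPA1 stood at 938, 1336 and 624 CPM in Upf1-TAP and at 129, 156 and 26.4 CPM in Input. Each Upf1-TAP library exceeded every Input library, by 3.21 ± 0.76 on the log2 scale (adjusted p = 0.0032), and the control purification held only 138, 45.2 and 51.6 CPM. Against that control, 11 of the 15 were higher and 0 lower, beside 19.8% and 13.9% of all features.

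Telomere genes were among them. STN1, a telomere-capping protein, stood at 141, 113 and 151 CPM against 15.5, 16.6 and 18.3 CPM, a log2 change of 3.02 ± 0.38 (adjusted p = 2.9e-05). EST2, the catalytic subunit of telomerase, stood at 85.2, 61.7 and 23.7 CPM against 6.51, 4.45 and 3.05 CPM (3.54 ± 0.64, adjusted p = 0.00042). Both were higher in every Upf1-TAP library than in any Input library. The telomerase subunits EST1 (2.10) and EST3 (1.91) rose as well. So did ALR1 (1.79), a magnesium transporter, SPT10 (1.95), an activator of histone genes, PPR1 (1.53) and FZF1 (1.32), transcription factors, CTF13 (1.58), a kinetochore protein, and COX19 (1.53), of the mitochondrial intermembrane space. CCW22 at 1.88 (adjusted p = 0.14), COX23 at 0.13, MAK31 at −0.01 and COX17 at −1.63 (adjusted p = 0.051) did not pass. With the replicate number as a block, CCW22 passed as higher (1.78, edgeR, adjusted p = 0.0097) and COX17 as lower (−1.61, adjusted p = 0.00033). PPR1 lost its call without Upf1-TAP replicate 1 or Input replicate 1, 2 or 3 (edgeR, adjusted p up to 0.0727), and COX19 without any 1 library but Upf1-TAP replicate 3 (up to 0.226). In the wider list of telomere maintenance, 9 of 15 were higher (60%, beside 22.2% of all features). STN1, EST1, EST2 and EST3 are counted again among these 9. Lower was 1, RAP1 (−1.51, but 0.56 when scaled by total count). The control purification was itself above Input in this list (median 0.75). Over that control 6 were higher and 2 lower, beside 19.8% and 13.9% of all features, with a median of −0.09. SIR3, SIR4 and TEL1 were among the 9, yet stood at −0.62, −0.95 and −0.68 against the control purification, and TEL1 lost its call over Input without Upf1-TAP replicate 1 or Input replicate 2 or 3 (edgeR, adjusted p up to 0.115).

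Among 24 mRNAs with regulatory frames in their 5′ leaders, 8 were higher (33.3%, beside 22.2% of all features), 1 lower (4.17%, beside 15.9%) and 15 did not pass. CPA1, of the NMD-sensitive list, is counted again among the 8. Over the control purification 5 were higher and 1 lower, beside 19.8% and 13.9% of all features, with a median of 0.18. The control was itself above Input by a median of 0.40. GCN4, the activator of amino acid synthesis genes that is itself translated through such frames, stood at 2528, 2075 and 1471 CPM in Upf1-TAP against 985, 986 and 326 CPM in Input. No Upf1-TAP library fell to the level of Input, and the log2 change was 1.40 ± 0.50 (adjusted p = 0.035). GCN4 did not pass without Upf1-TAP replicate 1 or 2 or Input replicate 2 or 3 (edgeR, adjusted p up to 0.125). The count of 8 became 5 without Upf1-TAP replicate 1 or Input replicate 2 and 4 without Input replicate 3.

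Pseudogene transcripts leaned the same way. Of 12 tested, 6 were higher (50%, beside 22.2% of all features), 0 lower and 6 did not pass. A positive change was seen in 11 of the 12 (median 1.89). The lower count was 0 also at an unadjusted p under 0.05 in edgeR and with DESeq2. FLO8 stood at 143, 98.1 and 46.4 CPM in Upf1-TAP against 8.99, 13.2 and 9.15 CPM in Input, with no overlap and a log2 change of 3.17 ± 0.69 (adjusted p = 0.0018). SDL1 stood at 26.6, 28.3 and 38.6 CPM against 2.17, 3.69 and 3.05 CPM (3.37 ± 0.46, adjusted p = 4.9e-05). Both frames carry the early stops printed above. YOL153C (2.17), SDC25 (1.96), which encodes part of a Ras exchange factor, and AAD6 (1.90) rose too, as did CRS5, a metallothionein gene with a stop at codon 9 in this genome, which Input held at only 0.93, 0 and 2.03 CPM. Calls were lost for AAD6 without Upf1-TAP replicate 1 or Input replicate 3, SDC25 without Input replicate 1, YOL153C without Upf1-TAP replicate 3 and CRS5 without Upf1-TAP or Input replicates 1 or 2 (edgeR, adjusted p up to 0.0632, 0.0527, 0.0501 and 0.266). CCW22 stood at 180, 208 and 16.1 CPM against 58.3, 41.6 and 6.10 CPM, higher in each experiment but overlapping between groups through replicate 3. HXT12 was at −0.40, and FDH2, YAR061W, YIR043C and YLL017W lay between 0.47 and 1.47, with YIR043C past the test under the replicate block (1.71, edgeR, adjusted p = 0.0014). Against the control purification, 4 of the 12 were higher, beside 19.8% of all features. They were SDL1 (2.17), AAD6 (1.71), CCW22 (2.70) and YIR043C (2.31), while FLO8 missed the threshold at 1.59 (edgeR, adjusted p = 0.060).

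**Figure D3:**
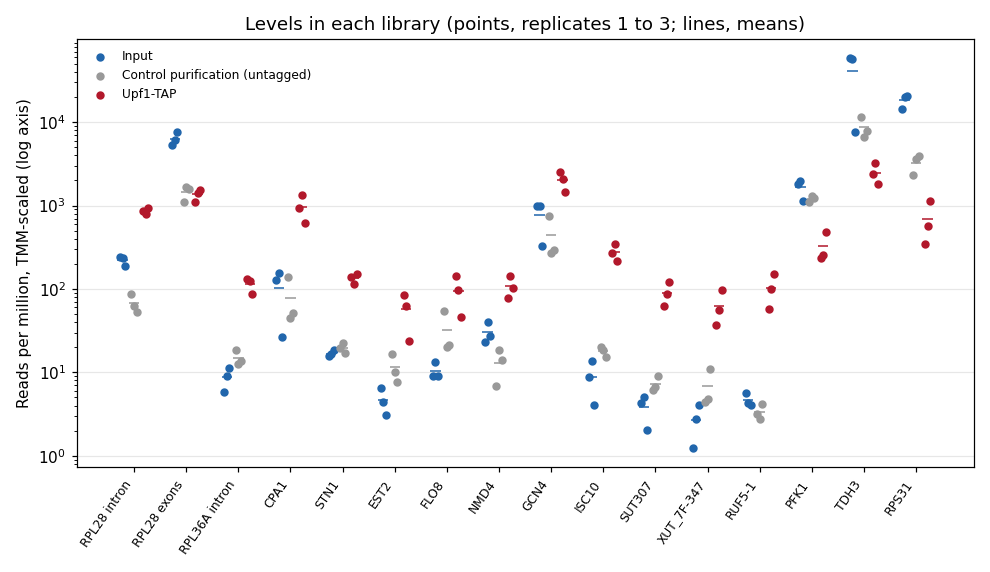
CPM after TMM scaling (y axis, log scale) of 16 features (x axis) in Input (blue), the control purification (grey) and Upf1-TAP (red). Points are the 3 libraries of a group and lines their mean. RPL28 intron levels lie between 799 and 935 in Upf1-TAP and between 190 and 241 in Input, while RPL28 exons, PFK1, TDH3 and RPS31 are lower in Upf1-TAP than in Input.

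XUT and SUT were gained broadly. Of 689 tested, 242 were higher in Upf1-TAP (35.1%) and 13 lower (1.89%), beside 22.2% and 15.9% of all features. The 522 XUTs had 181 higher and 8 lower with a median of 1.28, and the 167 SUTs had 61 higher and 5 lower with a median of 1.33. Against the control purification, 412 of the 689 were higher and 2 lower, beside 19.8% and 13.9% of all features. The 181 higher XUTs became 116 without Input replicate 2, the 8 lower XUTs 5 without Input replicate 1 or 2, and the 5 lower SUTs 1 without replicate 1 of either group. With the replicate number as a block, 26 XUT/SUT were lower in place of 13.

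SUT307 stood at 62.8, 86.2 and 120 CPM in Upf1-TAP against 4.34, 5.07 and 2.03 CPM in Input. That is 21.4-fold (4.42 ± 0.46 on the log2 scale, adjusted p = 9.2e-06) with no overlap, and the control purification, at 6.20, 6.73 and 8.93 CPM, was close to Input. XUT_7F-347 stood at 37.3, 55.6 and 96.6 CPM against 1.24, 2.76 and 4.07 CPM (4.68 ± 0.71, adjusted p = 0.00012). XUT_11F-292 (4.55) and XUT_1F-89 (4.58) were the other leading gains, the latter from a few reads in Input (0.62, 0.461 and 0 CPM) and not past the test against the control purification (1.47, adjusted p = 0.070). SUT141, over which the paper displays signal in these purifications, had 0 counted reads in the 6 libraries, so this 0 does not mean that the RNA was absent. In all 18 libraries 574 of 847 SUTs and 1523 of 2240 CUTs had 0 reads, so the results cover only part of each class.

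CUTs, which the nuclear exosome removes soon after synthesis, moved in both directions over Input. Of 274 tested, 44 were higher (16.1%) and 25 lower (9.12%), shares below those of all features. Only 9 had 10 reads in each of the 6 libraries, and with that filter 3 were higher and 1 lower. Over the control purification 81 were higher and 5 lower, beside 19.8% and 13.9% of all features, with a median of 1.28. CUT_GIM_0467 stood at 12.5, 13.0 and 12.1 CPM in Upf1-TAP against 1.55, 2.15 and 2.03 CPM, and CUT_GIM_0105 at 37.5, 132 and 113 CPM against 9.61, 26.0 and 30.5 CPM (2.70 and 2.12 on the log2 scale). CUT046 stood at 11.5, 12.1 and 9.57 CPM in Upf1-TAP and had 3 reads in all in Input. CUT146, at 1.93, 2.61 and 2.90 CPM against 12.4, 8.75 and 13.2 CPM, and CUT221 (−1.89) were among those that fell. CUT_GIM_0105 lost its call without Input replicate 1 or Upf1-TAP replicate 2 (edgeR, adjusted p up to 0.0701), and CUT221 without replicate 1 of either group (up to 0.0622). The 44 became 28 without Input replicate 2, and the 25 became 13 without Upf1-TAP replicate 1 and 14 without Input replicate 1. With the replicate block, 46 CUTs were lower.

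RUF5-1, a small RNA of unknown function, stood at 57.7, 100 and 153 CPM against 5.58, 4.30 and 4.07 CPM (4.46 ± 0.53, adjusted p = 2.4e-05), well above the control purification at 3.20, 2.76 and 4.19 CPM. RUF5-2 had the same counts in every library, so the copies cannot be told apart. Of 29 Ty retrotransposon features, 14 were higher (48.3%, beside 22.2% of all features) and 0 lower. The lower count was 0 also at an unadjusted p under 0.05 in edgeR and with DESeq2, and the control beads held Ty features too. YLRWTy1-3 stood at 1037, 1040 and 1108 CPM in Upf1-TAP, 148, 110 and 146 CPM in Input and 1894, 1499 and 1762 CPM in the control purification. The median Ty change was 1.76 over Input and −0.30 over the control purification. Only 3 of 29 were higher than in that control, beside 19.8% of all features. Ty copies share sequence, so single elements are uncertain.

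The mRNAs with the largest gains were mostly scarce in Input. ISC10, needed for spore formation, stood at 269, 343 and 218 CPM against 8.68, 13.8 and 4.07 CPM. That is 29.0-fold (4.86 ± 0.48 on the log2 scale, adjusted p = 5e-06) with no overlap, and the control purification held 20.0, 18.5 and 15.3 CPM. YOL029C, a frame of unknown function, stood at 127, 110 and 40.3 CPM against 1.55, 3.69 and 2.03 CPM (5.14 ± 0.83, adjusted p = 0.00017). RRG7, named for its part in respiratory growth, rose by 4.54, HST1, a histone deacetylase of the sirtuin family, by 4.17, and CNM1, a mitochondrial protein, by 4.17. YNL162W-A (4.42), PET18 (4.26), YPL034W (4.23) and YDL177C (4.05) complete the leading gains. The mating-type gene HMLALPHA2 and its copy HMRA2 shared all counts, at 141, 180 and 153 CPM against 8.37, 7.37 and 5.08 CPM (4.46), and MATALPHA2, identical over the coding region, rose by 4.38. The reads of these genes cannot be assigned to a locus, while HMLALPHA1 had 2 reads in the 6 libraries.

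Meiotic genes, which are silent or nearly so in growing haploids, made up part of this group. Of 26 tested from a list of 33, 16 were higher (61.5%, beside 22.2% of all features), 1, NDT80, lower and 9 did not pass. The median was 1.71. NDT80 lost its call without replicate 1 or 2 of either group (edgeR, adjusted p up to 0.102) and stood at 0.47 when scaled by total count. ZIP1, of the synaptonemal complex, stood at 79.6, 63.6 and 36.4 CPM against 2.17, 5.07 and 3.05 CPM (4.05 ± 0.53, adjusted p = 3.9e-05). Its groups did not overlap, and the control purification lay between them at 19.8, 16.6 and 11.5 CPM. SPS4 (4.53), RED1 (3.52), REC104 (3.11), MND1 (2.94), REC8 (2.73) and the kinase IME2 (2.68) also rose. Of the 26, 15 were higher than in the control purification, beside 19.8% of all features. Seripauperins and related anaerobic cell wall genes are a family with near-identical members whose reads may be split. Of 27, 13 were higher (48.15%, beside 22.2% of all features) and 1 lower. The 13 became 22 with the replicate block, 5 and 2 without both libraries of replicate 1 or of replicate 2, and between 9 and 16 without 1 library. Of 246 frames absent from the R64 annotation, many of them doubtful as genes, 47 were higher (19.1%, below the 22.2% of all features) and 11 lower (71 and 17 with the block), and the 47 became 28 without Input replicate 2. Over the control purification 77 were higher and 1 lower, beside 19.8% and 13.9% of all features, with a median of 1.44.

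Among mRNAs, those known to be heavily translated were low in Upf1-TAP. Of 135 exon or frame features of ribosomal protein genes, 127 were lower in Upf1-TAP (94.1%, beside 15.9% of all features), 1 higher and 7 did not pass. Their median was −3.21. Scaled by the total count, 43 were lower and 3 higher, with a median of −1.13. Many are near-identical pairs whose reads may be split. RPS31, a ubiquitin fusion that yields a protein of the small subunit, stood at 344, 576 and 1124 CPM in Upf1-TAP against 14214, 20178 and 20654 CPM in Input, lower in every library and 26.9-fold in all (−4.75 ± 0.74, adjusted p = 0.00013). RPL25 exons (−4.71), RPS27B exons (−4.41), RPS15 (−4.34), RPS26A (−4.34), RPS28A (−4.26), RPL40A exons (−4.21) and RPS3 (−4.15) followed. The exception, singled out after its values were seen, was RPL22B, whose exons stood at 607, 677 and 226 CPM against 79.4, 112 and 42.7 CPM (2.68, adjusted p = 0.00032). The same mRNAs were low on the control beads, where 111 of the 135 were below Input with a median of −2.06. Upf1-TAP lay further down, with 47 of 135 lower than in that control and 2 higher, beside 13.9% and 19.8% of all features.

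Glycolysis and fermentation showed the same. Of 18 genes, 17 were lower (94.4%, beside 15.9% of all features), 0 higher and 1 did not pass, with a median of −3.30. Scaled by total count, 7 were lower, with a median of −1.33. The higher count was 0 also at an unadjusted p under 0.05 in edgeR and with DESeq2. On the control beads 13 of the 18 were below Input, with a median of −1.775. Against that control 13 were lower in Upf1-TAP and 0 higher, beside 13.9% and 19.8% of all features, with a median of −1.60. TDH3, a glyceraldehyde-3-phosphate dehydrogenase, stood at 2418, 3226 and 1833 CPM against 58344, 57410 and 7600 CPM (−4.04 ± 0.78, adjusted p = 0.00068), and PDC1, the main pyruvate decarboxylase, at 1729, 2750 and 2420 CPM against 53204, 56587 and 13888 CPM (−4.16 ± 0.69, adjusted p = 0.0002). Input replicate 3 was the lowest of its group for both, and still above each Upf1-TAP library. FBA1, the aldolase, fell by 4.07 and PFK1, a phosphofructokinase subunit, by 2.34. CCW12, an abundant cell wall protein and the paralog of CCW22, stood at 969, 1425 and 200 CPM against 28059, 30179 and 3906 CPM (−4.58 ± 1.04, adjusted p = 0.0024), and did not differ from the control purification by the test (−0.61, adjusted p = 0.62).

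Other lists of growth genes were lower too, relative to the median feature. The counts below stand beside 15.9% lower and 22.2% higher among all features. In amino acid synthesis 37 of 42 were lower and 2 higher (median −2.01), in translation factors 16 of 22 and 1 (−1.65), in ribosome biogenesis 20 of 32 and 0 (−1.13), in heat shock and chaperones 13 of 20 and 1 (−1.75), and in cell wall and secreted proteins 14 of 22 and 0 (−1.51). The counts of 0 were 0 also at an unadjusted p under 0.05 in edgeR and with DESeq2. Scaled by the total count, their medians were 0.01, 0.43, 0.98, 0.32 and 0.50 in the same order, with 4, 4, 13, 4 and 4 genes higher and 0, 0, 0, 0 and 1 lower. Nuclear genes of oxidative phosphorylation had 14 of 33 lower and 1 higher, and mitochondrial ribosomal proteins 25 of 70 and 3 (scaled by the total count, 1 lower and 12 higher, and 0 and 32). TEF1 and TEF2, near-identical genes of elongation factor 1A, changed by −3.49 and −3.52, and SSB1, a ribosome-associated chaperone, by −3.33. Control medians over Input were 0.13 for ribosome biogenesis, 0.15 for mitochondrial ribosomal proteins, −0.17 for oxidative phosphorylation and −0.24 for heat shock and chaperones. Upf1-TAP lay below that control in 24 of 32, 29 of 70, 13 of 33 and 12 of 20 of them, beside 13.9% of all features. For cell wall genes, amino acid synthesis and translation factors the control medians were −0.78, −1.08 and −1.16. Of these, 3 of 22, 22 of 42 and 7 of 22 lay below the control in Upf1-TAP. With the replicate block the counts of lower genes were 22 for oxidative phosphorylation and 39 for mitochondrial ribosomal proteins, and the 25 of the latter became 14 without Upf1-TAP replicate 1. Cell wall genes had 9 lower without Input replicate 1 and 7 without Input replicate 2.

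Core histone genes, whose mRNAs are made in S phase, were intermediate. Of 8, 4 were lower (50%, beside 15.9% of all features) and 0 higher, and 0 higher also at an unadjusted p under 0.05 in edgeR and with DESeq2. The control purification had a median of −0.93 over Input in this list. Against that control 1 was lower in Upf1-TAP and 1 higher, beside 13.9% and 19.8% of all features, with a median of −0.48. Scaled by the total count, 0 were lower and 2 higher. The 4 that were lower than Input became 2 without Upf1-TAP replicate 1 or 3 or Input replicate 1 or 2. HHT2, a histone H3 gene, stood at 738, 1041 and 997 CPM against 678, 788 and 766 CPM, overlapping between groups (0.31, adjusted p = 0.53), and lay 1.30 above the control purification (adjusted p = 0.014). Its near-identical partner HHT1 stood at 152, 270 and 278 CPM against 843, 711 and 1199 CPM (−1.98, adjusted p = 0.0071), a change that turned to 0.13 when libraries were scaled by total count.

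**Figure D4:**
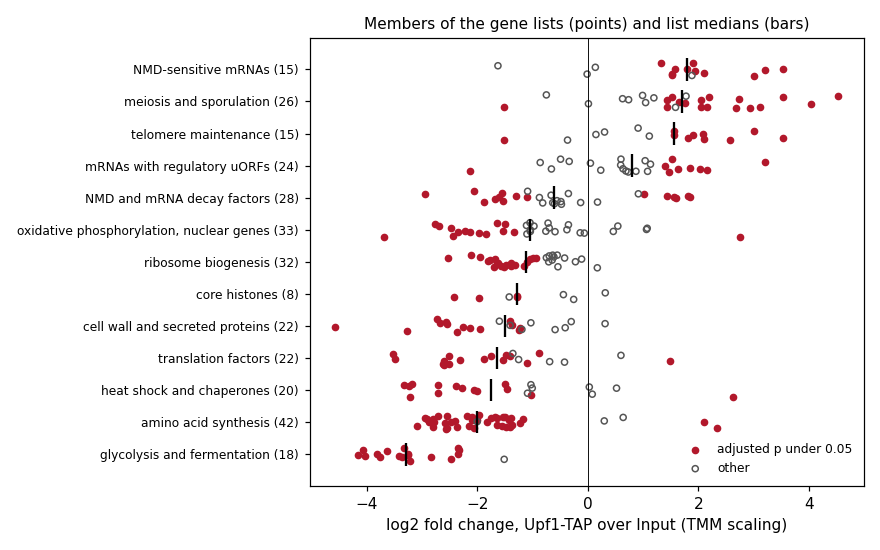
Log2 fold change of Upf1-TAP over Input (x axis) for the members of 13 gene lists (rows), with filled points for an adjusted p under 0.05, open points for the rest and a bar at each list median. NMD-sensitive mRNAs centre at 1.79 and meiotic genes at 1.71, while glycolysis and fermentation centre at −3.30 with no member above 0.

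Levels in Upf1-TAP varied with codon usage. The mRNA features with an intact frame, ribosomal protein genes left out, were split into quintiles of 1107 by codon adaptation, scored with the codons of 137 ribosomal protein genes. The median log2 change was 0.45, 0.46, 0.33, −0.32 and −1.19 from the lowest to the highest quintile. In the highest quintile 51.6% were lower in Upf1-TAP and 6.78% higher, and in the lowest 9.94% and 28.1%. The control purification had medians of 0.08, 0.43, 0.51, 0.17 and −0.49 over the same quintiles. By coding length, the Upf1-TAP medians ran from −0.08 in the shortest quintile to 0.17 in the longest, against −0.41 to 0.94 in the control purification. Codon adaptation is tied to abundance, and these medians are a description with no test.

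**Figure D5:**
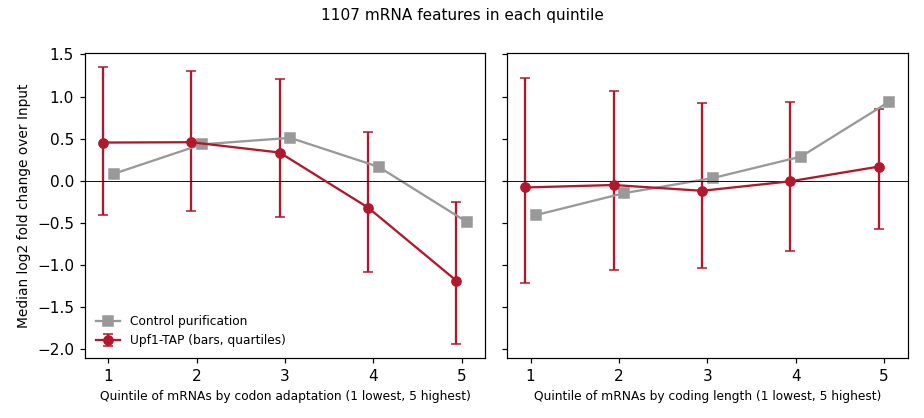
Median log2 fold change over Input (y axis) in quintiles of mRNA features by codon adaptation (left) and coding length (right), for Upf1-TAP (red, bars are quartiles) and the control purification (grey). For Upf1-TAP the median falls from 0.45 in the lowest quintile of codon adaptation to −1.19 in the highest, and runs from −0.08 to 0.17 over the quintiles of length.

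Untranslated regions partly followed their frames. For 3908 genes with both features tested, the 3′ UTR changed more toward Upf1-TAP than the frame in 81.6%, with a median difference of 0.63 on the log2 scale. Per library, the median log2 ratio of 3′ UTR to frame reads was −3.65, −3.75 and −3.52 in Upf1-TAP and −3.91, −4.44 and −3.61 in Input. Upf1-TAP was higher in each experiment, though the groups overlapped (exact permutation test, p = 0.3). The control purification also had a higher median over Input for all 3′ UTRs tested (0.25) than for all mRNA features (0.08). The ratio of 3′ UTR to frame was not compared with that control. For 1463 5′ UTRs the difference was −0.14, with 46.8% positive.

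The 3′ UTR of YNL162W-A gained most, at 177, 248 and 141 CPM against 1.86, 5.68 and 2.03 CPM (5.71 ± 0.71, adjusted p = 2.8e-05). The 3′ UTR of CKA1, a catalytic subunit of casein kinase 2, stood at 32.9, 37.6 and 71.5 CPM against 0.31, 1.38 and 2.03 CPM (5.41), while its frame changed by 1.46. In both, every Upf1-TAP library was above every Input library. The CKA1 frame lost its call without replicate 1 of either group, Input replicate 2 or Upf1-TAP replicate 3 (edgeR, adjusted p up to 0.168). HTL1, of the RSC chromatin remodeller, and USE1, a SNARE protein, had 3′ UTR changes of 4.99 and 4.51 with frame changes of 3.87 and 2.80. At the other end lay the 3′ UTRs of CCW12 (−4.21), PDC1 (−4.06), RPS26A (−3.98) and RPL41B (−3.97). Of 48 ribosomal protein 3′ UTRs, 43 were lower (89.6%, beside 15.9% of all features) and 1 higher. On the control beads 28 of the 48 were below Input, with a median of −1.75. Against that control 15 were lower in Upf1-TAP and 1 higher, beside 13.9% and 19.8% of all features.

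Among 5′ UTRs, that of OST2, of the oligosaccharyltransferase, stood at 26.7, 31.2 and 61.0 CPM against 2.79, 3.84 and 4.07 CPM (3.49 ± 0.43, adjusted p = 2.8e-05), and those of ZRT1 (3.19), FLR1 (2.55) and DAL5 (2.29), plasma membrane transporters, rose too. Those of RNR4 (−3.41), a ribonucleotide reductase subunit, PFK1 (−3.17), ATP5 (−3.10) and FKS1 (−2.98), of the glucan synthase, fell. In all, 295 of 1473 5′ UTRs were higher (20.0%) and 153 lower (10.4%), and 942 of 3934 3′ UTRs were higher (23.9%) and 364 lower (9.25%), beside 22.2% and 15.9% of all features. Against the control purification, 330 of the 5′ UTRs were higher and 93 lower. Of the 3′ UTRs, 690 were higher and 237 lower than in that control, beside 19.8% and 13.9% of all features. With 10 reads required in each of the 6 libraries the balance over Input turned, to 18 higher and 40 lower 5′ UTRs and 134 higher and 159 lower 3′ UTRs. Without Input replicate 2 the higher counts were 149 and 617. The 153 became 95 without Upf1-TAP replicate 1 or 2, and the 364 became 242 without Input replicate 1.

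Several structural RNAs outside the translated pool were low in Upf1-TAP, relative to the median feature. SCR1, the RNA of the signal recognition particle, stood at 1027, 1310 and 25529 CPM in Upf1-TAP against 123120, 178090 and 290690 CPM in Input. Replicate 3 was the highest of both groups, and the log2 change was −4.41 ± 1.36 (adjusted p = 0.016). NME1, the RNA of RNase MRP, and TLC1, the telomerase RNA, changed by −3.96 and −1.52. TLC1 stood at 0.44 when libraries were scaled by total count. TLC1 lost its call without replicate 1 or 2 of either group (edgeR, adjusted p up to 0.165), and SCR1 and NME1 without Upf1-TAP replicate 1 or 2 (up to 0.0606 and 0.0685). These 3 were singled out after their values were seen, and none passed the test against the control purification (adjusted p = 0.15 to 0.44). Of 95 tRNA features 55 were lower (57.9%, beside 15.9% of all features) and 0 higher. Their median was −4.19, beside −3.28 in the control purification over Input.

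RNAs made inside mitochondria had 7 of 14 features lower (50%, beside 15.9% of all features) and 0 higher. COX3 stood at 6.13, 10.2 and 26.7 CPM against 623, 323 and 582 CPM, lower in each library (−5.15 ± 0.72, adjusted p = 6.1e-05) and also below the control purification (−3.53, adjusted p = 0.0011). OLI1 changed by −4.63. Of 38 snoRNA and snRNA features, which act in the nucleus, 8 were lower (21.05%, beside 15.9% of all features) and 0 higher. Their median was −1.19, and 13 were lower than in the control purification, beside 13.9% of all features. As a share of all reads the class was not lower, with a mean of 5.85% in Upf1-TAP against 5.14% in Input and overlapping libraries. For tRNA, mitochondrial and these nuclear RNAs the higher counts were 0 also at an unadjusted p under 0.05 in edgeR and with DESeq2. Among the last, snR30, which is needed for 18S rRNA processing, stood at 2901, 3329 and 9584 CPM against 29217, 29724 and 113460 CPM (−3.45, adjusted p = 0.012). Its call was lost without Upf1-TAP replicate 1 or 2 (edgeR, adjusted p up to 0.055).

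Finally, the mRNAs of the decay machinery itself were mixed, with 6 of 28 higher (21.4%, beside 22.2% of all features), 9 lower (32.1%, beside 15.9%) and 13 not passing. Set against the untagged control, 14 were lower in Upf1-TAP and 2 higher, beside 13.9% and 19.8% of all features. In that control 8 were higher than in Input, beside 9.21% of all features. NMD4, a Upf1-associated factor, stood at 78.0, 142 and 104 CPM in Upf1-TAP against 23.2, 40.7 and 27.4 CPM in Input (1.81 ± 0.40, adjusted p = 0.0019), with no overlap, and at 6.80, 18.3 and 14.0 CPM in the control purification. EBS1, a relative of Est1 with a role in NMD, stood at 243, 171 and 193 CPM against 73.5, 72.8 and 80.3 CPM (1.42 ± 0.34, adjusted p = 0.0035). NMD2 (1.60), DCP2 (1.85), EDC3 (1.01), an activator of decapping, and LSM1 (1.56) rose over Input, but differed from the control purification by −0.33, 0.23, −0.37 and 0.98, none past the test. NAM7, which encodes the bait, stood at 110, 114 and 132 CPM against 233, 185 and 146 CPM, apart but not past the threshold (−0.67, adjusted p = 0.15). LSM5 (−2.95), which overlaps another gene on the opposite strand and is therefore uncertain, SKI8 (−2.06), POP2 (−1.88), PAT1 (−1.68), EDC1 (−1.60), LSM6 (−1.56), PAB1 (−1.54), EDC2 (−1.31) and CCR4 (−1.10) fell. The 9 became 4 without Input replicate 2. All of these but LSM5 turned positive, at 0.06 to 0.95, when libraries were scaled by total count. Single libraries decided the calls of CCR4, PAT1, PAB1, EDC1, EDC2 and EDC3 (each lost without Input replicate 2, among others), of LSM6 (Input replicate 3) and of LSM1 (Input replicate 1 or Upf1-TAP replicate 2), with adjusted p up to 0.16 in edgeR.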

How the data were processed

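The deposited table held raw read counts per feature, which per the labels and methods the authors made with cutadapt 1.16, STAR 2.7 and featureCounts of Subread 1.6.2 on the R64 genome. Groups came from sample titles. All 18 libraries entered 1 edgeR 4.0.16 quasi-likelihood fit (R 4.3.3, TMM factors, 12 residual degrees of freedom, Benjamini-Hochberg adjustment over the 12582 features that reached 10 reads in 3 or more libraries). Log2 ratios of intron to exon reads (pseudocount 0.5) were tested with limma 3.58.1, and DESeq2 1.42.0 was an alternative. The edgeR fit was run on simulated counts with the same fixed spread for every feature and few changed features. That setting is simpler than these libraries, so it gives no measure of the error of the calls here. Same-numbered Upf1-TAP and Input libraries deviated together (r = 0.385, 0.337 and 0.482 across features), so a fit with the replicate number as a block was run beside the unblocked one. Near copies were found with blastn 2.17.0. The features and lists were chosen with earlier results of these data known. Named were the bait and transcripts shown in the study, the 12 mRNAs and 4 features of each other class changing most in each direction without overlap (mean of at least 20 CPM, or 5 CPM for non-coding RNA), up to 4 abundant members per list and whole NMD and decay lists. All others, such as the pseudogenes, most meiotic and telomere genes and histone HHT1, were chosen after their values were seen. 1 feature that this rule names is not reported here.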

Additional observations from a re-analysis of the deposited data

How the results depend on the processing

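Scaling by the total count moved every count: 8872 features higher and 120 lower (98.7% of calls higher, against 58.3%), with mRNA features at 4134 and 66, 5′ UTRs at 1008 and 3, 3′ UTRs at 2858 and 15, introns at 65 and 2, XUT/SUT at 616 and 1, and CUTs at 156 and 0. It turned the log2 change positive for CUT221 (0.17), the introns of GLC7 (0.047) and RPS0B (0.40), TLC1 (0.44), CCR4 (0.95), HHT1 (0.13), MAK31 (2.21), PAT1 (0.37), LSM6 (0.62), EDC2 (0.74), PAB1 (0.52), SKI8 (0.056), EDC1 (0.46), NDT80 (0.47), HXT12 (1.64), NAM7 (1.38), RAP1 (0.56) and POP2 (0.15). List medians less the median of all features hardly moved, for example 1.52 and 1.56 for NMD-sensitive mRNAs. Requiring at least 10 reads in each of the 6 libraries left fewer features to test and gave 1457 and 1059 in all, 839 lower mRNA features, 18 and 40 5′ UTRs, 134 and 159 3′ UTRs, 6 lower introns, 19 and 1 XUT/SUT, 3 and 1 CUTs and 2 genes with a lower intron ratio. Without a filter 39 CUTs were lower, and a pseudocount of 5 gave 10 genes with a lower intron ratio. The replicate block over all 18 libraries gave 3715 and 2742 in all, 26 lower XUT/SUT and 46 lower CUTs. With only the 6 libraries and the block, 238 5′ UTRs, 600 3′ UTRs, 31 XUT/SUT and 56 CUTs were lower and 73 CUTs higher. Neither block ended the call of a named feature.

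Leaving out a replicate number or a single library gave 1495 to 2741 features higher and 1016 to 2019 lower. The ranges were 650 to 1223 and 783 to 1345 for mRNA features, 105 to 282 and 58 to 155 for 5′ UTRs, 479 to 878 and 142 to 366 for 3′ UTRs, and 12 to 27 and 5 to 12 for introns. For XUT/SUT they were 101 to 269 and 2 to 15, for CUTs 19 to 50 and 7 to 28, and for the intron ratio 49 to 54 and 2 to 5 genes. Among lists, NMD-sensitive mRNAs had 6 to 11 higher, meiotic genes 8 to 17, pseudogenes 3 to 5, ribosomal protein introns 9 to 23 and frames absent from the annotation 23 to 57. Leaving out each replicate number, the RPL28 ratio difference was 3.97 to 4.35. The causes of these shifts were not tested. Depth limits scarce RNAs in Input, where 1 read was worth up to 1.02 CPM.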
